A study of Arabidopsis thaliana with 16 samples.

Results

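The 8 genes described here are the early enzymes of flavonoid synthesis in Arabidopsis thaliana and the MYB factors that switch the flavonol branch on: CHS, CHI, F3H, F3'H, FLS1, MYB11, MYB12 and MYB111. They were taken by locus identifier as members of a known pathway, not by a threshold on a measured value, and they are 8 of the 34262 genes counted. MYB12 had only 55 reads in all 16 libraries and did not pass the filter on low counts, so 7 of the 8 were tested among 19224 genes.

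All plants were of the ecotype Col-0, with no mutation or transgene named in the labels. The series asked how a jasmonic acid (JA) treatment of seedlings alters the response of the adult plant to JA, a wound and defence hormone. Groups are named by the seedling spray and then the adult spray. JA_JA plants received 1 mM JA at 2 weeks and 0.1 mM JA at 5 weeks. JA_W plants received 1 mM JA at 2 weeks and water at 5 weeks, W_JA plants received water at 2 weeks and 0.1 mM JA at 5 weeks, and W_W plants received water both times. Water sprays carried the ethanol of the matching JA solution, and every spray held 0.02% of the wetting agent Silwet. Rosette leaves were taken 4 h after the adult spray, at 5 weeks of age, from plants grown at 21 °C in days of 8.5 h. Each group has 4 libraries, called biological replicates in the labels, and each library pooled 8 leaves from 2 plants. Below, the seedling spray is called the history and the adult JA spray the challenge.

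Flavonoids are built from coumaroyl-CoA and malonyl-CoA. CHS (chalcone synthase) makes the first flavonoid, naringenin chalcone, CHI (chalcone isomerase) closes its ring, and F3H (flavanone 3-hydroxylase) turns the product into a dihydroflavonol, which F3'H can hydroxylate on the B-ring. The path then forks: FLS1 (flavonol synthase) converts dihydroflavonols to the flavonols kaempferol and quercetin, while DFR sends them to the red and purple anthocyanins. MYB11, MYB12 and MYB111 are closely related R2R3-MYB factors that activate CHS, CHI, F3H and FLS1 without a bHLH partner. The late anthocyanin genes are instead under PAP1-type MYBs that work with bHLH factors and the WD40 protein TTG1. In leaves, flavonols act as ultraviolet screens and antioxidants.

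The libraries held 32190193 to 34319939 counted reads, with a median of 34159442, so that 1 read was worth about 0.029 CPM, a gene's count rescaled to a common library size. Levels are given as CPM scaled with TMM (edgeR's trimmed mean of M values), as mean ± SD over 4 libraries, and changes as log2 differences ± SE from edgeR, with p-values adjusted over all genes tested and a threshold of 0.05. The tissue label was checked with mesophyll genes (RBCS1A, LHCB1.3 and CA1), whose summed level was 33439 to 42679 CPM in JA_JA, 34297 to 43228 CPM in JA_W, 23232 to 31691 CPM in W_JA and 24848 to 33912 CPM in W_W. The challenge was visible in both histories: VSP2, a JA-induced storage protein gene, had 7436 ± 1432 CPM in JA_JA against 126 ± 26.4 CPM in JA_W, and 2735 ± 406 CPM in W_JA against 3.69 ± 1.27 CPM in W_W (SD, n = 4 each).

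With no challenge, a JA history went with higher transcript levels along most of the pathway. CHS was 20.9-fold, FLS1 7.08-fold and CHI 2.54-fold higher in JA_W than in W_W, MYB111 was 5.41-fold higher, and MYB11 was higher by a log2 of 4.32. In all, 6 of the 7 tested members were higher and none was lower, where 33.8% of all genes tested were higher and 31.1% lower. In water-history plants the challenge raised 4 members in W_JA against W_W, namely CHS, CHI, F3H and FLS1, where 13.9% of all genes tested were higher. In JA-history plants the direction differed: 4 members, namely CHI, FLS1, MYB11 and MYB111, were lower in JA_JA than in JA_W and none was higher, where 16.5% of all genes tested were lower and 15.4% higher. Under challenge, 2 members (CHS and FLS1) were higher in JA_JA than in W_JA and none was lower, where 18.9% of all genes tested were higher and 21.2% lower. The FLS1 call was lost with scaling to library totals and with any of 4 libraries left out. The challenge effect itself was lower in JA-history than in water-history plants for 6 members, with F3'H the exception, where 10.4% of all genes tested had an interaction of that sign. The call of MYB111 among the 6 was lost in 14 of 22 alternatives.

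These counts are a description, since F3H met the filter's minimum of 10 reads in every library only in JA_JA and JA_W, and MYB11 and MYB111 only in JA_W. The comparisons share libraries, W_W and JA_JA among them, so their agreement is not independent. In whole leaves, fewer cells of a type and less RNA per cell cannot be told apart.

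**Figure D1:**
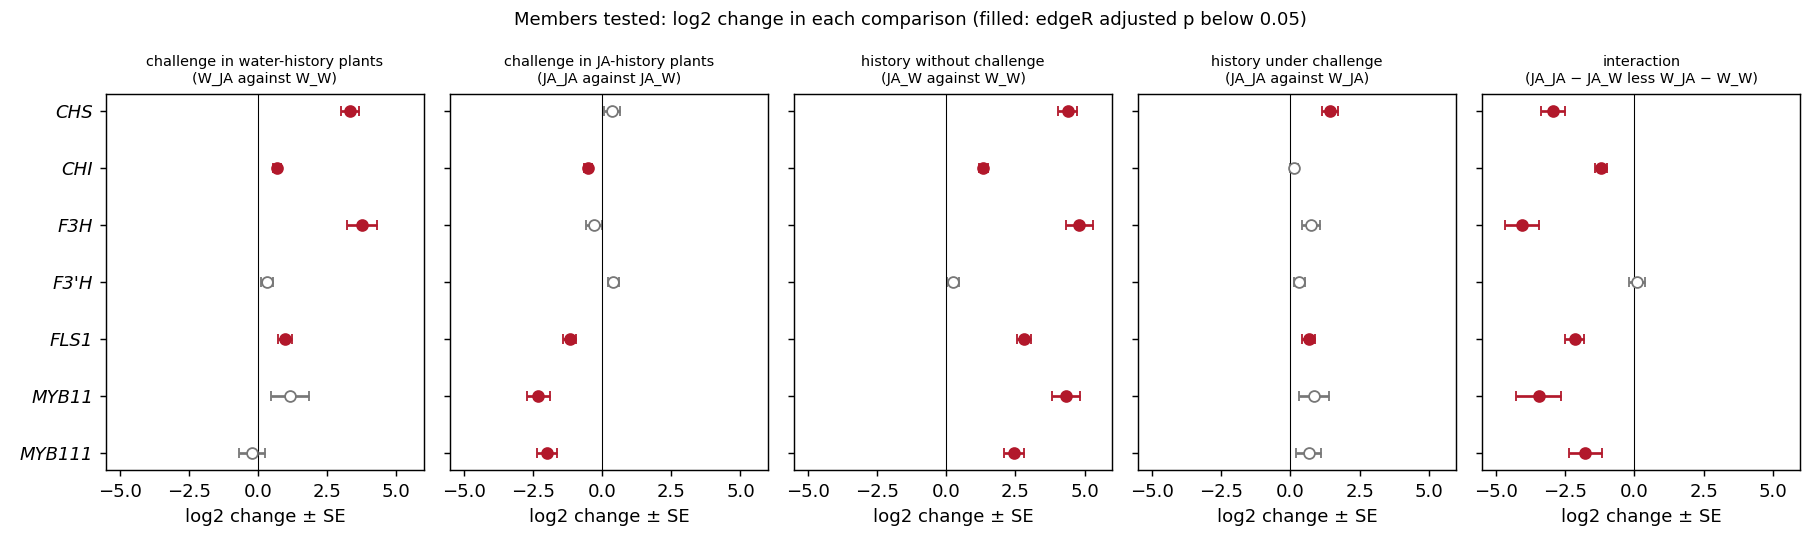
Log2 change ± SE (horizontal axis) of the 7 tested members (rows) in the 5 comparisons (panels), positive where the first group named is higher; filled points passed an edgeR adjusted p of 0.05. CHS, CHI, F3H, FLS1, MYB11 and MYB111 stand right of 0 for history without challenge (1.34 to 4.81) and left of 0 for the interaction (-4.07 to -1.21), while the points of F3'H are unfilled throughout.

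The sequences just upstream of 5 genes are shown: those that hold a G-box or MYB-type letters, which known flavonoid regulators bind, and that of MYB11, the MYB with the largest change. All 8 loci were found in the RefSeq annotation of TAIR10.1, and the 250 bases before each annotated gene start were searched on both strands. The letters searched were CACGTG (the G-box, bound by bZIP and bHLH factors), its core ACGT, which every G-box also contains, and the MYB-type letters ACCTACC (in 1.16% of the promoters of this length in the annotation), ACCAACC (in 2.69%), ACCTAAC (in 2.46%) and ACCAAAC (in 8.29%). Capitals mark matches to any of these.
CHS, chr5:4488226-4488475, plus strand: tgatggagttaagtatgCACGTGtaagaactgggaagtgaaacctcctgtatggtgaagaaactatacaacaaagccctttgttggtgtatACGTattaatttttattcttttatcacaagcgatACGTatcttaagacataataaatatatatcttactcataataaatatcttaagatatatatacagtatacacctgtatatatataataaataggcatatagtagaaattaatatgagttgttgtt
F3H, chr3:19024942-19025191, plus strand: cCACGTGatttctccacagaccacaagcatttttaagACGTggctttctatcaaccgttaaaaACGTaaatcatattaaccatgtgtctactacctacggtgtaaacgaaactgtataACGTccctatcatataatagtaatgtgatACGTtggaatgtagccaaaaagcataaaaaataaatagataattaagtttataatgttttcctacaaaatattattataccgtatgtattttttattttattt
MYB12, chr2:19476076-19476325, plus strand: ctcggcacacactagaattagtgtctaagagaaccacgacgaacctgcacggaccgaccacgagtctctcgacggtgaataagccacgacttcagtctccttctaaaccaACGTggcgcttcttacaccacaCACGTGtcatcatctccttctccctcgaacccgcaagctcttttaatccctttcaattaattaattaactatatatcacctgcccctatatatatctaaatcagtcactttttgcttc
FLS1, chr5:2803583-2803832, plus strand: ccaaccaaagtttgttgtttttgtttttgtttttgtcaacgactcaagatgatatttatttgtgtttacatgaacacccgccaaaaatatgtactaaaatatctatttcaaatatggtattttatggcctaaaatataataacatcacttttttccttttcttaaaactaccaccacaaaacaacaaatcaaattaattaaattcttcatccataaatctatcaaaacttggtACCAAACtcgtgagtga
MYB11, chr3:23154380-23154629, plus strand: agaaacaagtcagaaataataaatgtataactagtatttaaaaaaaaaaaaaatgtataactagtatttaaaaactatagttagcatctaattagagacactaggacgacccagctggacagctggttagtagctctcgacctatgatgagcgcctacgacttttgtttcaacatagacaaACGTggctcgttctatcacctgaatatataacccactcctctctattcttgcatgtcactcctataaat

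A G-box lay upstream of CHS (233 to 228 bases before the start), F3H (249 to 244) and MYB12 (118 to 113), which is 3 of the 8 members, while 6.49% of 27443 promoters of this length in the annotation hold it. CHS had 3 and F3H had 5 ACGT cores in all, MYB12 had 2, and MYB11 and MYB111 had 1 each, a core that 44.1% of promoters hold. Of the MYB-type letters only ACCAAAC was found, upstream of FLS1 (17 to 11 bases before the start), and 8.29% of promoters hold it. The windows of CHI and F3'H held none of the letters searched. A match is not shown to be a bound site, and letters outside the window were not searched.

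**Figure D2:**
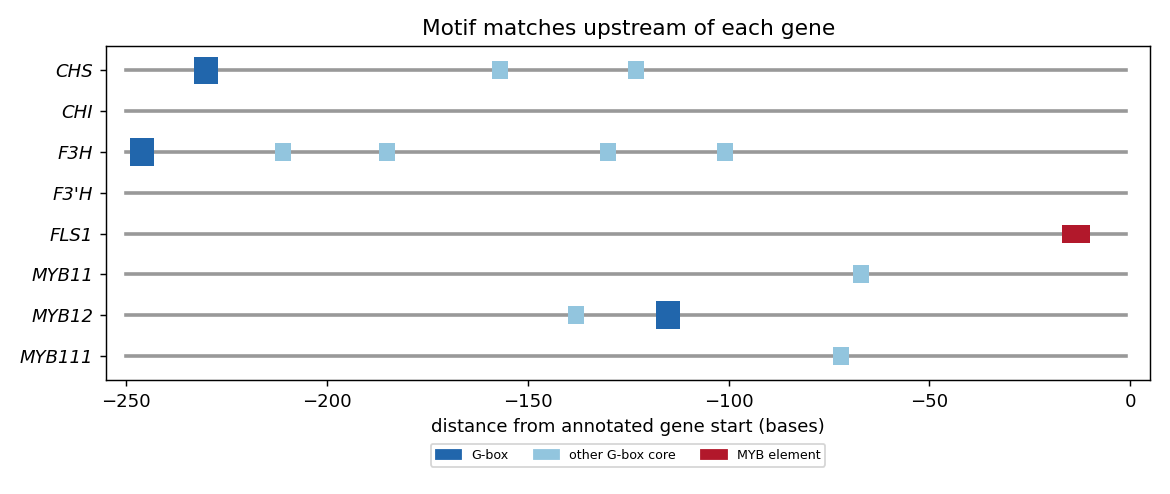
Positions of the matches in the 250 bases upstream of each member (horizontal axis, bases from the annotated gene start; 1 row per gene). G-boxes are seen for CHS, F3H and MYB12, further ACGT cores for 5 members, and a single MYB-type match, for FLS1, at 17 to 11 bases before the start.

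CHS (AT5G13930, TAIR10.1 chr5:4488476-4490264, plus strand) was the most abundant member per kilobase of exon in the groups with JA in a spray, with 113 ± 32.0 CPM per kb in JA_JA, 87.6 ± 24.6 in JA_W and 42.0 ± 6.25 in W_JA. In W_W it had 4.197 ± 1.75 CPM per kb, within the spread of CHI (4.49 ± 0.741). Its level was 142, 264, 206 and 159 CPM in the 4 JA_JA libraries, 99.2, 189, 130 and 178 CPM in JA_W, 75.8, 72.9, 81.0 and 56.4 CPM in W_JA, and 2.87, 8.01, 7.92 and 9.80 CPM in W_W. Every library with JA in either spray thus lay above every W_W library. The JA_JA and JA_W libraries lay above all of W_JA, while those 2 groups overlapped each other. The challenge raised CHS by 3.32 ± 0.33 on the log2 scale in W_JA against W_W (edgeR adjusted p = 2.39e-06), whereas JA_JA and JA_W differed by 0.37 ± 0.29 (edgeR adjusted p = 0.359). History raised it by 4.38 ± 0.34 in JA_W against W_W (edgeR adjusted p = 9.68e-08) and by 1.43 ± 0.30 in JA_JA against W_JA (2.69-fold, edgeR adjusted p = 0.00180). The challenge effect was therefore smaller with a JA history (interaction -2.95 ± 0.43, edgeR adjusted p = 0.000601).

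CHI (AT3G55120, TAIR10.1 chr3:20430059-20431597, minus strand) spanned a narrower range. It had 6.58, 8.14, 9.08 and 11.8 CPM in JA_JA, 12.9, 13.8, 11.4 and 12.6 CPM in JA_W, 8.31, 7.63, 8.35 and 8.11 CPM in W_JA, and 4.07, 4.55, 5.54 and 5.83 CPM in W_W. JA_W was the highest group and W_W the lowest, W_JA lay inside the range of JA_JA, and JA_JA replicate 4 reached into the range of JA_W. CHI rose 1.62-fold with the challenge in W_JA against W_W (log2 0.70 ± 0.15, edgeR adjusted p = 0.00251) and fell 1.43-fold in JA_JA against JA_W (log2 -0.51 ± 0.15, edgeR adjusted p = 0.0129). JA history raised it without challenge (log2 1.34 ± 0.15, edgeR adjusted p = 1.14e-06), and under challenge JA_JA and W_JA differed by 0.13 ± 0.15 (edgeR adjusted p = 0.495). The interaction was -1.21 ± 0.21 (edgeR adjusted p = 0.00142).

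F3H (AT3G51240, TAIR10.1 chr3:19025192-19026872, plus strand) had very few reads, although CHS and CHI, which act just before it, were well covered. The 4 libraries held 14, 13, 12 and 11 reads in JA_JA, 18, 17, 11 and 20 in JA_W, 8, 9, 8 and 6 in W_JA, and 1, 1, 0 and 0 in W_W, equal to 0.393 ± 0.0175, 0.485 ± 0.116, 0.235 ± 0.0442 and 0.0134 ± 0.0155 CPM in that order. No W_W library reached the level of any other library, and JA_JA and JA_W overlapped. Only in these last 2 groups did F3H meet the filter's minimum of 10 reads in every library. Its comparisons with them, the interaction included, are therefore a description. In TAIR10.1, 1415 of its 1508 exon bases (93.8%) are also covered by AT3G51238, a long noncoding RNA on the opposite strand that had 6 reads in all libraries. Whether the counting used strand is not given in the sources used here, so F3H is an uncertain measurement, and the part of this overlap in its low counts was not tested. Relative to the 2 reads of W_W, the scaled count ratio was 16.99 in W_JA (95% counting interval 4.32 to 147; edgeR adjusted p = 7.73e-05) and 35.3 in JA_W (9.38 to 297; edgeR adjusted p = 3.99e-07). These intervals pool the reads of the 4 libraries of a group, so they cover counting error only and leave out the spread between libraries. The reads also carry no molecular identifiers. JA_JA differed from JA_W by a log2 of -0.30 ± 0.28 (edgeR adjusted p = 0.449) and from W_JA by 0.74 ± 0.31 (edgeR adjusted p = 0.0673), and the interaction was -4.07 ± 0.63 (edgeR adjusted p = 0.000674).

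F3'H (AT5G07990, TAIR10.1 chr5:2560328-2563137, plus strand), the cytochrome P450 that sets the quercetin share among flavonols, was the member with no call in any comparison. It had 3.82, 4.16, 2.45 and 2.02 CPM in JA_JA, 2.68, 1.85, 2.26 and 2.61 CPM in JA_W, 2.87, 2.67, 2.24 and 2.16 CPM in W_JA, and 1.90, 2.12, 1.97 and 1.97 CPM in W_W. JA_JA replicates 1 and 2 were the highest libraries, JA_JA overlapped with all other groups, and every W_JA library lay just above the W_W libraries. Its log2 differences were 0.32 ± 0.21 for W_JA against W_W, 0.41 ± 0.20 for JA_JA against JA_W, 0.24 ± 0.21 for JA_W against W_W and 0.33 ± 0.20 for JA_JA against W_JA. The edgeR adjusted p ran from 0.139 to 0.319 over these comparisons, and the interaction was 0.09 ± 0.29 (edgeR adjusted p = 0.865). Without JA_JA replicate 4, whose level was the lowest of its group, F3'H passed the threshold in JA_JA against JA_W (log2 0.59, edgeR adjusted p = 0.0232) and in JA_JA against W_JA (log2 0.49, edgeR adjusted p = 0.0425).

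FLS1 (AT5G08640, TAIR10.1 chr5:2803833-2805606, plus strand), which makes the flavonols, peaked in JA_W. It had 6.35, 8.42, 4.93 and 6.39 CPM in JA_JA, 11.1, 19.0, 13.0 and 15.8 CPM in JA_W, 4.60, 3.66, 4.81 and 3.47 CPM in W_JA, and 1.03, 2.76, 2.33 and 2.17 CPM in W_W. The 4 groups did not overlap with one another, in the order JA_W, JA_JA, W_JA and W_W. The challenge raised FLS1 1.99-fold in W_JA against W_W (log2 0.99 ± 0.25, edgeR adjusted p = 0.00744). In JA-history plants it was 2.26-fold lower in JA_JA than in JA_W (log2 -1.17 ± 0.23, edgeR adjusted p = 0.000914). History raised it in JA_W against W_W (log2 2.82 ± 0.25, edgeR adjusted p = 1.43e-07), and the interaction was -2.16 ± 0.34 (edgeR adjusted p = 0.000786). Under challenge it was 1.58-fold higher in JA_JA than in W_JA (log2 0.66 ± 0.24, edgeR adjusted p = 0.0356). That last call ended with scaling to library totals (edgeR adjusted p = 0.0738) and without W_JA replicate 2 or 4 or JA_JA replicate 1 or 2 (edgeR adjusted p = 0.0556 to 0.113).

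**Figure D3:**
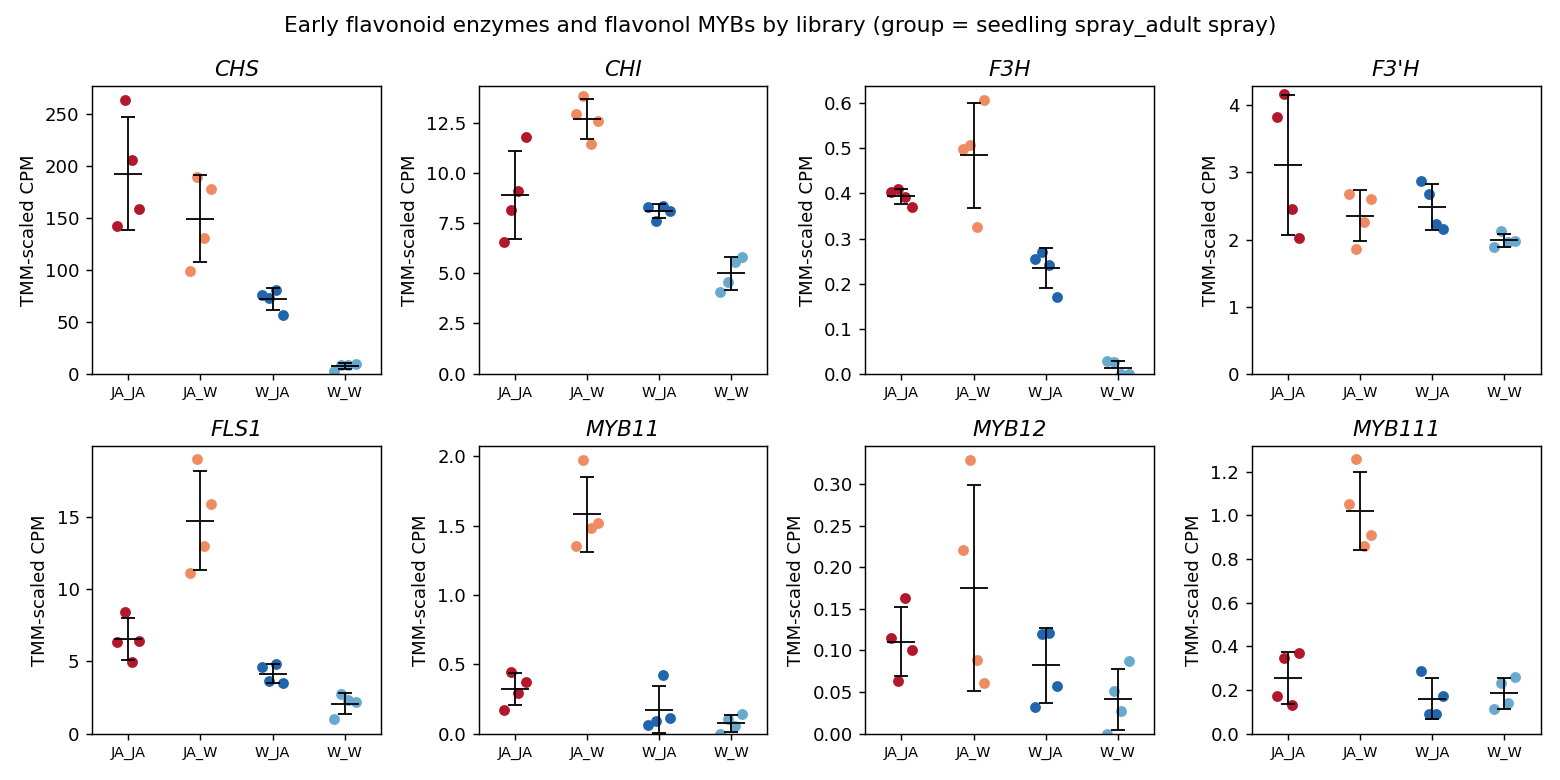
TMM-scaled CPM (vertical axis, linear, own scale in each panel) of the 8 members in the 16 libraries, by group; points are libraries, bars the mean ± SD of 4. W_W is the lowest group by its mean in all panels but that of MYB111, and JA_W stands above the other groups for FLS1 (11.1 to 19.0 CPM), MYB11 (1.36 to 1.97 CPM) and MYB111 (0.861 to 1.26 CPM).

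MYB11 (AT3G62610, TAIR10.1 chr3:23154630-23156585, plus strand) was a rare transcript everywhere but in JA_W. The libraries held 6, 14, 9 and 11 reads in JA_JA, 49, 66, 50 and 50 in JA_W, 2, 3, 14 and 4 in W_JA, and 0, 4, 2 and 5 in W_W. Its level was 0.319 ± 0.115 CPM in JA_JA, 1.58 ± 0.269 in JA_W, 0.173 ± 0.168 in W_JA and 0.0756 ± 0.0623 in W_W. JA_W stood clear of all other libraries. Only in JA_W did MYB11 meet the filter's minimum of 10 reads in every library. Its comparisons with that group, the interaction included, are therefore a description. W_JA overlapped with W_W, and with JA_JA only through W_JA replicate 3, whose 14 reads equalled the highest JA_JA library. In TAIR10.1, 110 of its 1374 exon bases are shared with AT3G62615 on the opposite strand, which had no read. MYB11 rose by 4.32 ± 0.51 on the log2 scale with history in JA_W against W_W (edgeR adjusted p = 1.86e-06) and was 4.95-fold lower in JA_JA than in JA_W (log2 -2.31 ± 0.42, edgeR adjusted p = 0.000459). The challenge in water-history plants gave 1.16 ± 0.68 (edgeR adjusted p = 0.230), and history under challenge 0.86 ± 0.54 (edgeR adjusted p = 0.216). Both values turned on W_JA replicate 3: without it they were 0.24 (edgeR adjusted p = 0.835) and 1.77 (edgeR adjusted p = 0.0163). The interaction was -3.46 ± 0.80 (edgeR adjusted p = 0.00762), and -2.55 without that library (edgeR adjusted p = 0.0423).

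MYB111 (AT5G49330, TAIR10.1 chr5:19998823-20001572, minus strand) had the same highest group. It had 6, 11, 4 and 11 reads in JA_JA, 38, 42, 29 and 30 in JA_W, 9, 3, 3 and 6 in W_JA, and 4, 9, 5 and 9 in W_W, or 0.255 ± 0.121, 1.02 ± 0.177, 0.160 ± 0.0932 and 0.185 ± 0.0716 CPM in that order. Again every JA_W library was above every other library, and the other 3 groups overlapped. MYB111 met the filter's minimum of 10 reads in every library only in JA_W. Its comparisons with that group, the interaction included, are therefore a description. History raised MYB111 5.41-fold in JA_W against W_W (log2 2.44 ± 0.36, edgeR adjusted p = 1.66e-05), and it was 3.99-fold lower in JA_JA than in JA_W (log2 -1.99 ± 0.35, edgeR adjusted p = 0.000341). W_JA and W_W differed by -0.22 ± 0.46 (edgeR adjusted p = 0.773), and JA_JA and W_JA by 0.66 ± 0.45 (edgeR adjusted p = 0.249). Its interaction of -1.77 ± 0.59 was near the threshold (edgeR adjusted p = 0.0465) and was lost in 14 of 22 alternatives, where the adjusted p ran from 0.0332 to 0.158 over all 22. Without W_JA replicate 1, the library of its group with most reads, the interaction was -1.32.

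MYB12 (AT2G47460, TAIR10.1 chr2:19476326-19479597, plus strand) was close to the limit of detection. It had 4, 2, 5 and 3 reads in JA_JA, 8, 11, 3 and 2 in JA_W, 1, 4, 4 and 2 in W_JA, and 0, 2, 1 and 3 in W_W. All 4 groups overlapped. The mean was 0.111 ± 0.0414 CPM in JA_JA, 0.175 ± 0.124 in JA_W, 0.0825 ± 0.0451 in W_JA and 0.0414 ± 0.0368 in W_W. The scaled count ratio of JA_W to W_W was 4.27 (95% counting interval 1.70 to 12.8). That interval pools the libraries of each group and leaves out the spread between them. Over the 4 libraries a group, the exact two-sided permutation p was 0.0571, where 0.0286 is the smallest such a design can give. The exact permutation p was 0.171 for W_JA against W_W, 0.429 for JA_JA against JA_W and 0.400 for JA_JA against W_JA. With no filter on low counts, edgeR gave a log2 of 2.00 ± 0.68 for JA_W against W_W (adjusted p = 0.0186).

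The members thus fell into unlike orders of their 4 groups. CHS and F3'H had their highest mean in JA_JA, and CHI, F3H, FLS1, MYB11 and MYB111 had theirs in JA_W. For CHS, F3H and F3'H the difference between JA_JA and JA_W was not called, so the order of these 2 groups is not settled. Profiles of centred log2 levels over the 16 libraries were compared by their root mean square difference. From FLS1 it was 0.63 to F3H, 0.64 to MYB11, 0.66 to MYB111 and 0.66 to CHI. CHS (1.19) and F3'H (1.03) lay farther from FLS1. F3'H lay 1.81 from CHS and 0.58 from CHI. The profiles were not scaled, so genes with small changes lie close together even where their directions differ. In JA_JA against JA_W, CHI was lower (log2 -0.51), while F3'H was not called (log2 0.41). These distances are descriptions over libraries that share the design, and the profiles of low-count genes are pulled in by the prior count of 2.

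Read ratios within a library, which do not depend on library scaling, show how unevenly CHS and FLS1 moved. For each FLS1 read there were 29.1 CHS reads in JA_JA, 17.2 in W_JA and 3.32 in W_W, with JA_W between W_JA and W_W, as geometric means uncorrected for gene length. On the log2 scale FLS1 over CHS was -4.87 ± 0.40 in JA_JA, -3.32 ± 0.14 in JA_W, -4.11 ± 0.14 in W_JA and -1.73 ± 0.32 in W_W, and no libraries of different groups overlapped. At the fork of the pathway, FLS1 over DFR was 1.88 ± 0.43 in JA_JA, 6.33 ± 1.66 in JA_W, 3.67 ± 0.61 in W_JA and 4.11 ± 1.04 in W_W. All 4 JA_JA libraries (1.26 to 2.25) thus lay below, and all 4 JA_W libraries (5.13 to 8.72) above, every W_JA library (3.11 to 4.48). DFR had only 1 to 13 reads in the JA_W libraries, the value for JA_W replicate 2 rests on 1 read, and the W_W libraries held 2 to 9. With an offset of 5 reads in place of 0.5 the ratio was 1.79 in JA_JA, 5.41 in JA_W, 3.18 in W_JA and 3.10 in W_W, so the order of W_JA and W_W is not settled. F3'H over F3H was 2.87 ± 0.44 in JA_JA, 2.26 ± 0.39 in JA_W, 3.33 ± 0.19 in W_JA and 6.39 ± 0.86 in W_W, the last resting on 2 F3H reads in all.

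**Figure D4:**
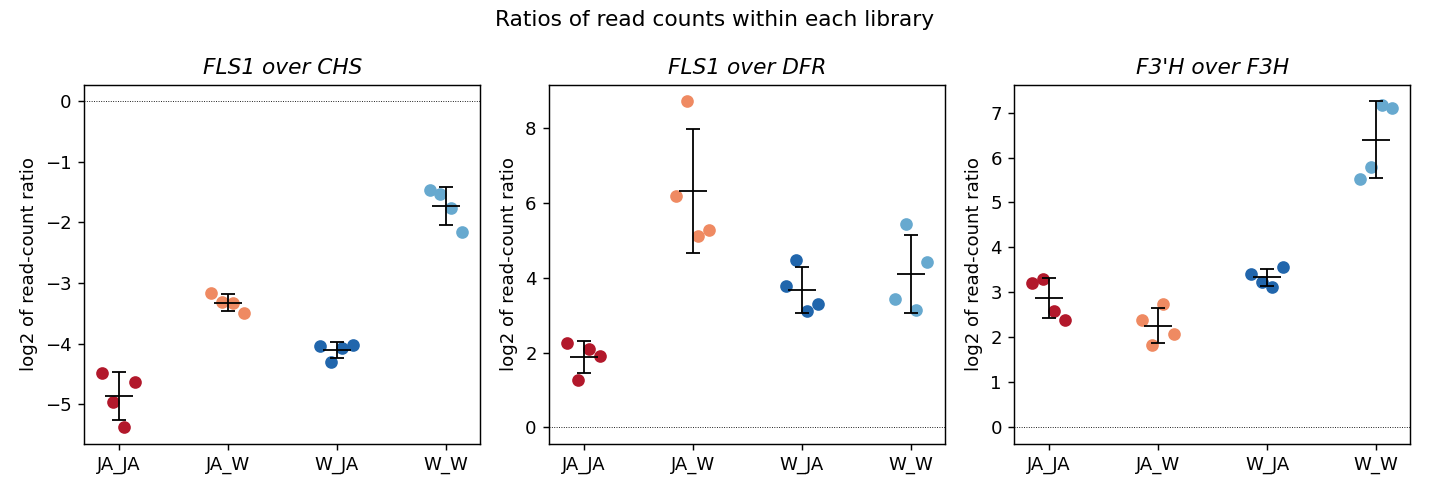
Log2 ratio of read counts within each library (vertical axis, own scale in each panel) for FLS1 over CHS, FLS1 over DFR and F3'H over F3H, by group; points are libraries, bars the mean ± SD of 4. FLS1 over DFR lies at 1.26 to 2.25 in JA_JA and 5.13 to 8.72 in JA_W.

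The steps that feed the pathway mostly did not share its rise. Of 8 phenylpropanoid entry genes, none rose and 3 fell in W_JA against W_W, 1 rose and 5 fell in JA_JA against JA_W, 3 rose and 2 fell in JA_JA against W_JA, and 1 rose and 1 fell in JA_W against W_W. Of all genes tested, 13.9% rose and 12.9% fell in the first of these comparisons, 15.4% and 16.5% in the second, 18.9% and 21.2% in the third and 33.8% and 31.1% in the last. The median log2 change of the entry genes was -0.70 in JA_JA against JA_W and 0.11 in JA_W against W_W, beside -0.013 and 0.047 over all genes tested. The single gene that rose with history alone was 4CL3, the coumarate ligase tied to flavonoids, with 5.37 ± 1.31 CPM in JA_JA, 13.6 ± 2.34 in JA_W, 1.87 ± 0.485 in W_JA and 1.59 ± 0.758 in W_W. It was 8.50-fold higher in JA_W than in W_W (edgeR adjusted p = 5.37e-07) and 2.53-fold lower in JA_JA than in JA_W (edgeR adjusted p = 0.00177). By contrast 4CL1, the main ligase of the lignin branch, fell with the challenge in both histories (log2 -0.97 in JA_JA against JA_W and -0.63 in W_JA against W_W), as did PAL4 (log2 -1.004 and -1.66). PAL1 rose in JA_JA against JA_W (log2 0.50 ± 0.13, edgeR adjusted p = 0.00681).

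CHIL, a non-catalytic relative of CHI that helps CHS make chalcone, had 5.11 ± 0.944 CPM in JA_JA, 13.8 ± 2.18 in JA_W, 2.01 ± 0.578 in W_JA and 1.40 ± 0.642 in W_W. It was 9.86-fold higher in JA_W than in W_W (edgeR adjusted p = 1.05e-07) and 2.69-fold lower in JA_JA than in JA_W (edgeR adjusted p = 0.000374), with an interaction of -1.96 ± 0.38 (edgeR adjusted p = 0.00301). Of the FLS paralogs, FLS2 and FLS3 were tested. FLS3 was higher with a JA history both under challenge (log2 2.69 ± 0.49, edgeR adjusted p = 0.000560) and without it (log2 1.71 ± 0.51, edgeR adjusted p = 0.00786), at no more than 0.789 CPM in any library. FLS3 had at least 10 reads in every library only in JA_JA. How the counting treated reads shared between FLS paralogs was not tested.

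Of the 6 genes that decorate flavonols, 4 were tested. UGT78D1, the flavonol 3-O-rhamnosyltransferase, had 98.8 ± 13.6 CPM in JA_JA, 60.8 ± 8.55 in JA_W, 49.3 ± 7.59 in W_JA and 18.1 ± 1.56 in W_W. It rose in all 4 pairwise comparisons, by a log2 of 0.70 in JA_JA against JA_W, 1.44 in W_JA against W_W, 1.00 in JA_JA against W_JA and 1.74 in JA_W against W_W. UGT78D2, the 3-O-glucosyltransferase, had the signs of FLS1 at a smaller size in 3 comparisons. It fell in JA_JA against JA_W (log2 -0.40 ± 0.11, edgeR adjusted p = 0.0114), and rose in W_JA against W_W (log2 0.48 ± 0.11, edgeR adjusted p = 0.00473) and in JA_W against W_W (log2 1.01 ± 0.11, edgeR adjusted p = 1.23e-06). OMT1 and RHM1, an O-methyltransferase and a UDP-rhamnose synthase, passed in no comparison.

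The late anthocyanin enzymes took the opposite direction to FLS1 in JA-history plants. Of 9 tested, 6 rose and none fell in JA_JA against JA_W, 5 rose in W_JA against W_W, 5 rose in JA_W against W_W, and 7 rose and 1 fell in JA_JA against W_JA. Beside these counts, 15.4%, 13.9%, 33.8% and 18.9% of all genes tested rose in the same 4 comparisons, and 21.2% fell in the last. DFR, LDOX and 5MAT had at least 10 reads in every library only in JA_JA, so these counts are a description. The median log2 change of the list was 2.43 in JA_JA against JA_W, 1.505 in W_JA against W_W, 1.70 in JA_W against W_W and 2.48 in JA_JA against W_JA, beside -0.013, -0.0032, 0.047 and 0.010 over all genes tested. DFR had 1.91 ± 1.08 CPM in JA_JA, 0.230 ± 0.175 in JA_W, 0.339 ± 0.162 in W_JA and 0.118 ± 0.0891 in W_W. It was 8.26-fold higher in JA_JA than in JA_W (edgeR adjusted p = 0.000296), while 1.505 ± 0.68 for W_JA against W_W on the log2 scale did not pass (edgeR adjusted p = 0.115). UGT79B1, an anthocyanin xylosyltransferase, had 6.53 ± 3.24 CPM in JA_JA, 0.348 ± 0.146 in JA_W, 1.10 ± 0.496 in W_JA and 0.0406 ± 0.0271 in W_W. LDOX, which acts after DFR, rose by a log2 of 2.43 ± 0.55 in JA_JA against JA_W (edgeR adjusted p = 0.00317). In the interaction 1 gene of the list, SAT, passed, with -1.53 ± 0.32 (edgeR adjusted p = 0.00487). That count is near the 10.4% of all genes tested with an interaction of that sign.

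Of the anthocyanin regulators 5 of 8 were tested, and PAP1, the MYB that commits leaves to anthocyanin, had 63.7 ± 8.56 CPM in JA_JA, 36.1 ± 8.14 in JA_W, 39.0 ± 10.4 in W_JA and 3.42 ± 0.841 in W_W. PAP1 rose in all 4 pairwise comparisons (log2 0.82 in JA_JA against JA_W, 3.51 in W_JA against W_W, 0.71 in JA_JA against W_JA and 3.40 in JA_W against W_W), with an interaction of -2.69 ± 0.31 (edgeR adjusted p = 0.000107). The bHLH genes differed from each other in JA-history plants. GL3 was higher in JA_JA than in JA_W (log2 2.07 ± 0.38, edgeR adjusted p = 0.000586), and EGL3 was lower (log2 -1.23 ± 0.24, edgeR adjusted p = 0.00108), at 0.697 ± 0.131 CPM in JA_JA, 1.64 ± 0.214 in JA_W, 0.191 ± 0.0758 in W_JA and 0.138 ± 0.0613 in W_W. TT8 had no read in W_W and up to 1.58 CPM in JA_JA, the only group with at least 10 reads in every library. TTG1 was lower in JA_W than in W_W (log2 -0.92 ± 0.12, edgeR adjusted p = 3.78e-06).

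A list of 10 genes holds repressors of flavonoid or anthocyanin synthesis. Of these, 3 rose and 3 fell in JA_W against W_W, and 2 rose and 6 fell in JA_JA against JA_W. None rose and 3 fell in W_JA against W_W, and none rose and 2 fell in JA_JA against W_JA. In JA_W against W_W these counts are near the shares over all genes (33.8% higher, 31.1% lower), whereas 16.5% of all genes were lower in JA_JA against JA_W. In W_JA against W_W 13.9% of all genes were higher and 12.9% lower. For JA_JA against W_JA the shares were 18.9% and 21.2%, near the count of 2 lower. The median log2 change of the list was -0.75 in JA_JA against JA_W and -0.0019 in JA_W against W_W, beside -0.013 and 0.047 over all genes tested. KFB-CHS, an F-box protein that targets CHS protein for breakdown, had 149 ± 9.78 CPM in JA_JA, 58.5 ± 12.5 in JA_W, 185 ± 44.4 in W_JA and 212 ± 41.7 in W_W. It was 3.63-fold lower in JA_W than in W_W (edgeR adjusted p = 3.47e-07) and 2.54-fold higher in JA_JA than in JA_W (edgeR adjusted p = 2.70e-05), with an interaction of 1.55 ± 0.25 (edgeR adjusted p = 0.000950). MYBL2, an R3-MYB repressor, had the same signs (log2 -0.80 and 0.90, interaction 0.76, edgeR adjusted p = 0.00204). LBD39 and SPL9 had the opposite ones. LBD39 was higher in JA_W than in W_W (log2 1.32 ± 0.14, edgeR adjusted p = 8.58e-07) and lower in JA_JA than in JA_W (log2 -1.68 ± 0.15, edgeR adjusted p = 2.33e-07). MYB7 was lower in JA_W than in W_W (log2 -1.38 ± 0.26, edgeR adjusted p = 0.000207). LBD37, MYB4, MYB32 and LBD38 fell in JA_JA against JA_W (log2 -1.03, -0.99, -0.76 and -0.74). LBD37, MYB4 and LBD38 also fell in W_JA against W_W (log2 -0.96, -0.54 and -0.64).

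The light regulators kept to a narrower range, with log2 changes of -0.77 to 1.13 over the 4 pairwise comparisons and list medians of -0.01 to 0.12. HY5, the bZIP factor that binds G-box letters of CHS, had 6.21 ± 1.19 CPM in JA_JA, 5.74 ± 0.817 in JA_W, 8.53 ± 2.30 in W_JA and 3.89 ± 0.794 in W_W. It rose in W_JA against W_W (log2 1.13 ± 0.20, edgeR adjusted p = 0.000538) and in JA_W against W_W (log2 0.56 ± 0.20, edgeR adjusted p = 0.0231), with an interaction of -1.02 ± 0.28 (edgeR adjusted p = 0.0204). RUP1, which damps the ultraviolet-B receptor, rose with the challenge in both histories (log2 1.01 in JA_JA against JA_W and 1.00 in W_JA against W_W). Of the 10 genes of this list, 2 rose and none fell in JA_JA against JA_W, 3 rose and none fell in W_JA against W_W, none rose and 1 fell in JA_JA against W_JA, and 3 rose and 2 fell in JA_W against W_W. The last counts are near the shares over all genes (33.8% higher, 31.1% lower), and 15.4% of all genes were higher in JA_JA against JA_W and 13.9% in W_JA against W_W. For JA_JA against W_JA the shares were 18.9% higher and 21.2% lower.

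**Figure D5:**
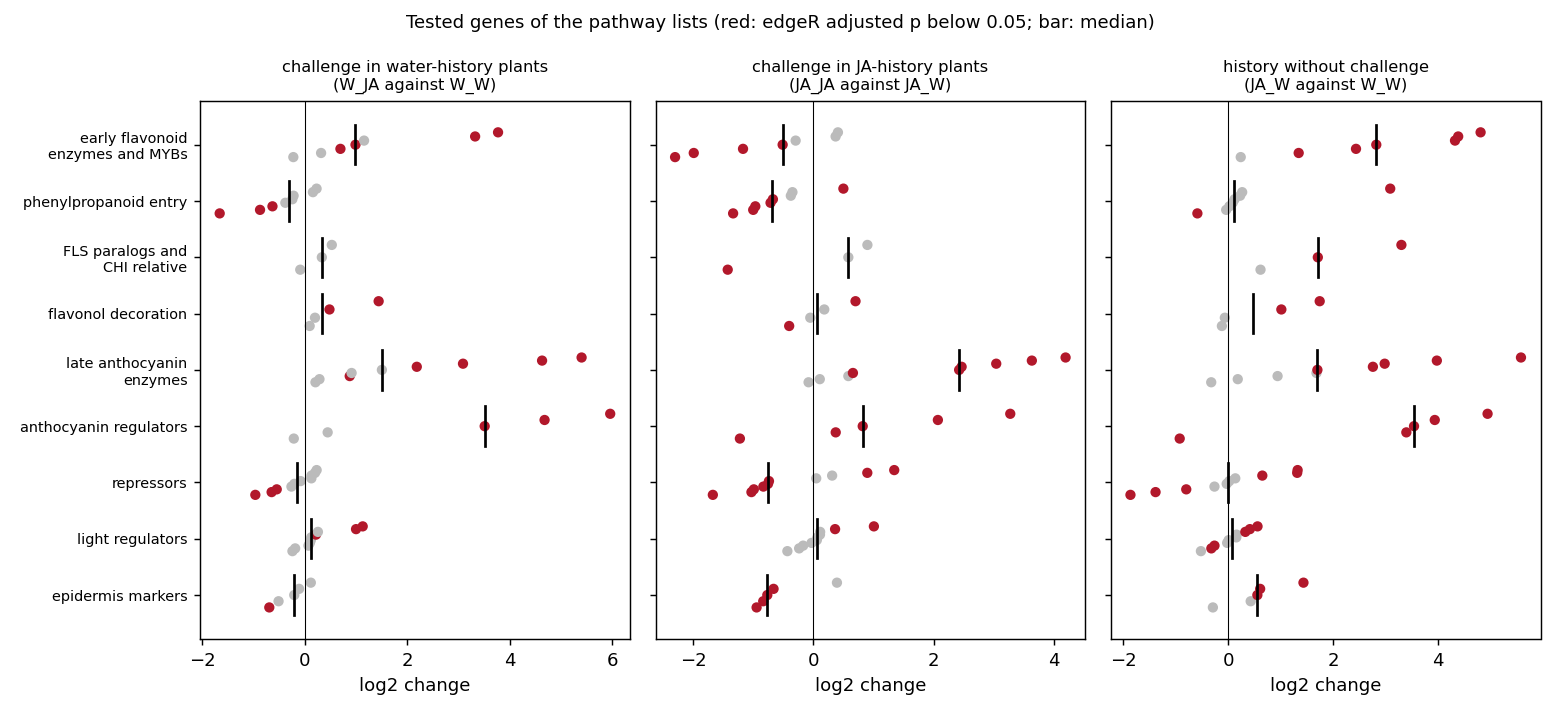
Log2 change (horizontal axis) of each tested gene of the pathway, regulator and epidermis lists (rows) in 3 comparisons (panels); red points passed an edgeR adjusted p of 0.05, and bars are list medians. In JA_JA against JA_W the late anthocyanin enzymes reach 4.201, while MYB11, the lowest early flavonoid gene, lies at -2.31.

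Markers of leaf cell types moved with some of the same contrasts, and their part in the results above was not tested. Of 5 epidermis markers, 3 (ATML1, PDF2 and LTP1) rose and none fell in JA_W against W_W, by a log2 of 0.56, 0.61 and 1.44, where 33.8% of all genes tested rose. In JA_JA against JA_W, 4 (ATML1, PDF2, FDH and LTP1) fell by a log2 of 0.67, 0.95, 0.77 and 0.84, where 16.5% of all genes tested fell. The fifth, CER6, a wax synthesis gene, had the opposite signs and passed in neither comparison (log2 0.39, edgeR adjusted p = 0.0670 in JA_JA against JA_W, and log2 -0.29, edgeR adjusted p = 0.115 in JA_W against W_W). In W_JA against W_W none of the 5 epidermis markers rose and 1, PDF2, fell (log2 -0.69). There 13.9% of all genes tested rose and 12.9% fell. The summed epidermis level was 880 to 1474 CPM in JA_JA, 1463 to 1866 CPM in JA_W, 762 to 1116 CPM in W_JA and 772 to 1339 CPM in W_W. In JA_W against W_W, 2 of 3 guard cell, 2 of 3 mesophyll, 1 of 3 phloem and both tested trichome markers also rose. There 1 of 3 is the share over all genes. In JA_JA against JA_W, 1 of 3 mesophyll markers fell, and no guard cell, phloem or tested trichome marker did. The trichome sum was 4.73 to 7.29 CPM in JA_JA, 4.63 to 6.46 in JA_W, 3.29 to 4.08 in W_JA and 2.58 to 2.93 in W_W. It came from GL2 and TTG2, since GL1, a MYB gene of the trichome list, had no read in any group.

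The genes whose profile over the 16 libraries was nearest to a member's were found among all genes tested, by the root mean square difference of centred log2 CPM. For CHS they were BGLU6 (0.53), AT5G63087 (0.55) and PAP1 (0.63). BGLU6 had 39.9 ± 5.51 CPM in JA_JA, 19.95 ± 3.14 in JA_W, 12.2 ± 1.64 in W_JA and 2.13 ± 0.802 in W_W. For FLS1 the nearest gene was SAHH2 (0.29), with 392 ± 42.2 CPM in JA_JA, 663 ± 151 in JA_W, 205 ± 17.1 in W_JA and 132 ± 42.9 in W_W, followed by AT5G41460 (0.32) and AT4G34550 (0.36). For MYB11 they were CHIL (0.43), AT2G27420 (0.48) and 4CL3 (0.49), and for MYB111 AT3G51870 (0.43), PCS1 (0.44) and TINY2 (0.44). CHI had AT2G14860, MSL10 and RSR4 nearest (0.16 to 0.17), and F3'H had MES11, AT1G79620 and TAO1 (0.15 to 0.18). With a prior count of 0.5 in place of 2, the same 3 genes were named for CHS, CHI, F3'H and FLS1, and 2 of 3 for MYB11 and MYB111. For F3H none of the 3 (ProT3, BGLU1 and AXR3) was named again. Its profile rests on few reads, and the part of this was not tested.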

How the data were processed

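Poly(A) RNA of 16 leaf libraries was sequenced as single 50 bp reads, per the labels' protocols. The submitters' processing notes name TAIR10 as the build and HTSeq 0.9.1, Trimmomatic 0.38 and STAR 2.6.1b as tools, and settings and strandedness are not given in the sources used here. Each deposited table holds raw read counts per gene and the authors' CPM, which equal the counts over their total to within 5.09e-11 and were not tested. The counts were fitted with edgeR 4.0.16 (R 4.3.3): filterByExpr by group (minimum count 10, minimum total 15; 15038 genes removed), TMM factors of 0.888 to 1.14, 1 mean per group over 16 libraries (12 residual degrees of freedom), and the robust quasi-likelihood F-test with Benjamini-Hochberg adjustment over 19224 genes.

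The 5 comparisons were JA_JA against JA_W and W_JA against W_W for the challenge, JA_JA against W_JA and JA_W against W_W for the history, and their interaction. The script was tested on simulated data. The members are a known pathway taken by locus, with no measured value in the rule; they and 14 further lists (83 genes) were chosen with earlier results of these data known. Named genes are the members, up to 4 called genes of a list with the largest change in a comparison, and the 3 nearest genes per member; other genes named, such as the cell type markers, were chosen after their values were seen. Symbols, loci and sequences came from RefSeq TAIR10.1, where 32547 identifiers were found. Chi-squared per gene between replicates was 6.05 to 75.0, so no library was a copy. Read ratios used an offset of 0.5. DESeq2 1.42.0, other scalings, filters and fits, a replicate block and each library left out were the alternatives.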

Additional observations from a re-analysis of the deposited data

Results flagged for a closer look

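In 6 members the challenge effect in JA-history plants differed from that in water-history plants by the edgeR interaction test. The difference, JA-history minus water-history on the log2 scale, was -2.95 for CHS, -1.21 for CHI, -4.07 for F3H, -2.16 for FLS1, -3.46 for MYB11 and -1.77 for MYB111. CHI and FLS1 changed sign between the histories, each passing the threshold in both. For F3H the value rests on 2 reads in W_W, and for MYB111 the call was lost in 14 of 22 alternatives. MYB11 had 11 reads in all of W_W, and its difference was -2.55 without W_JA replicate 3 (edgeR adjusted p = 0.0423).

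MYB11 in W_JA replicate 3 stood far from the other libraries of its group: its gap to the nearest was 0.861 of the group's range, above Dixon's critical value for 4 samples. It was 1 of 32 groups of members looked at, and chance flags about 1 in 20.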

How the results depend on the processing

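Calls of the members were stable to most choices: of the values under other settings, 791 kept their direction and side of the threshold, 19 lost and 4 gained a call, and 4 turned sign. The sign turned for CHI in history under challenge without JA_JA replicate 4, where the values with a library left out ran from -0.025 to 0.26. It also turned for the F3'H interaction without JA_W replicate 2 (-0.012), JA_JA replicate 1 (-0.029) or JA_JA replicate 2, where they ran from -0.039 to 0.29. None of these passed the threshold. History under challenge called 1 member with library totals in place of 2, and 1 to 3 with a library left out; the ranges were 4 to 4 (challenge, water history), 4 to 5 (challenge, JA history), 6 to 6 (history without challenge) and 5 to 6 (interaction). F3H passed in history under challenge with upper-quartile scaling (log2 0.83, edgeR adjusted p = 0.0418). With an offset of 5 reads the log2 ratio of F3'H over F3H was 2.78 in W_JA and 3.82 in W_W, and MYB111 over MYB12, at 2.10 in W_W with an offset of 0.5, was 0.85. The causes were not tested.

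Library totals shifted the median of all genes by -0.12 in the water-history challenge and in history without challenge. They gave 2096 higher and 4437 lower genes in JA_JA against JA_W (2964 and 3174 with TMM), 1683 and 3763 in W_JA against W_W (2674 and 2473), and 2437 and 5015 in JA_JA against W_JA (3630 and 4080; 4909 and 3291 with upper-quartile scaling). Without JA_W replicate 2 the interaction called 2344 genes in place of 1539 higher and 2000 lower. Of 2753 values of called list genes, 112 lost the call and none turned. The replicate number as a block called 4, 4, 6, 2 and 6 members in the 5 comparisons, as without it; the numbers did not pair the libraries, since at most 4 of 8 correlated best with their own number. Precision is limited by the few reads counted for F3H, MYB11, MYB12 and MYB111.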

Other observations

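Several genes of the pathway had too few reads to be tested. The 6 proanthocyanidin genes of the seed coat summed to no more than 0.0672 CPM in any JA_JA library, 0.111 in JA_W, 0.0302 in W_JA and 0.145 in W_W, and TT10 and TT1 had no read at all. FLS6 had 17 reads in JA_JA, 9 in JA_W, 7 in W_JA and none in W_W, and FLS4 had none anywhere. The anthocyanin MYB genes MYB113 and MYB114 had 11 and 14 reads in JA_JA, 1 and 6 in JA_W, 5 and 28 in W_JA, and 0 and 4 in W_W. UGT89C1, a flavonol 7-O-rhamnosyltransferase, had 7 reads in JA_JA, none in JA_W, 4 in W_JA and 4 in W_W. An annotated RNA on the opposite strand shares 99.6% of its exon bases, as for F3H, and its part in these counts was not tested.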
